A study of Saccharomyces cerevisiae with 4 samples.

Results

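Nucleosomes at the 3′ ends of budding yeast open reading frames (ORFs) were examined in an H4K16ac ChIP-seq comparison of nhp6ab cells with wild-type (WT) cells. A nucleosome belonged to a 3′ end when the midpoint of its listed interval lay inside the last 300 bp before the stop of a nuclear protein-coding ORF of at least 1000 and under 4000 bp, by R64 coordinates. There were 3352 such ORFs. Their 3′ ends held 5587 of the 57674 intervals in the nhp6ab table (9.69%) and 5745 of the 60557 intervals in the WT table (9.49%). The comparison was the central 300 bp of the same ORFs, which held 5573 intervals in nhp6ab and 5801 in WT. Among the 3′ end intervals, 2 in nhp6ab and 2 in WT also lay in the middle of another ORF.

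The labels give the mutant genotype as nhp6ab and the control as WT, without the alleles or the strain background. NHP6A and NHP6B encode closely related small DNA-bending proteins of the HMGB family. Both were grown exponentially in rich glucose medium (YPD), cross-linked with formaldehyde and sonicated, and chromatin was recovered with an antibody against histone H4 acetylated at lysine 16. The labels name 2 libraries per genotype, but the counts came as a single column per genotype. The spread between replicates is therefore unknown and no test between genotypes was made. Intervals given with a ratio are exact conditional binomial 95% intervals that cover counting error only, as PCR copies of 1 molecule cannot be told from separate molecules.

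H4K16ac is spread broadly over yeast chromatin and sparse at silenced loci. The SAS complex and NuA4 place it, and the deacetylase Sir2 removes it at silenced loci. The 3′ end of a gene is where RNA polymerase II leaves the coding region, the transcript is cleaved and polyadenylated and transcription stops. A region depleted of nucleosomes often follows the stop. Beyond it lies either the promoter of a gene on the same strand (tandem arrangement) or the 3′ end of a gene on the other strand (convergent arrangement). Nhp6 works with the histone chaperone FACT, which takes nucleosomes apart and rebuilds them as polymerase passes.

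The tables held 20293261 counts in nhp6ab and 26526939 in WT, with a median of 354 and 442 counts per interval. Counts were scaled to the table totals, so a ratio compares shares of each table and gives no absolute amount of acetylation. No input library was used here, so a count cannot separate how often a nucleosome was present from how often it was acetylated. Over the short NHP6A ORF (chromosome XVI, 665693 to 665974), 260 counts were listed in nhp6ab and 592 in WT, and over NHP6B (chromosome II, 426190 to 426489) 564 and 882. Neither gene was without reads in the table labelled nhp6ab, so the counts do not settle the labels, and nhp6ab and WT name the tables as labelled throughout. Chromosome XII carried a shift of its own, described with the chromosomes. A sum also moves with the number of listed intervals, so the mean count per interval is given beside it. Fewer intervals were listed in nhp6ab, and the genome as a whole had a log2 ratio of means of 0.070, nhp6ab over WT. A level is a count divided by the median count of its table.

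Nucleosomes were listed densely up to the last 100 bp before the stop and sparsely beyond it. In the 50 bp bin from 100 to 50 bp before the stop, 0.330 intervals per ORF were listed in nhp6ab and 0.331 in WT. In the bin from 50 to 100 bp beyond the stop, the numbers were 0.0713 in nhp6ab and 0.0820 in WT, the lowest of the 26 bins from 900 bp before to 400 bp beyond the stop in both tables. The last listed nucleosome before the stop lay 82 bp from it in nhp6ab and 79 bp in WT (medians over 3098 and 3150 ORFs). Levels were lower along the same stretch. The median level was 1.00 in nhp6ab and 1.03 in WT at 200 to 150 bp before the stop, 0.912 in nhp6ab and 0.897 in WT in the last 50 bp, and 0.828 and 0.819 at 50 to 100 bp beyond it. The count per listed nucleosome was thus already lower in the last 100 bp of the ORF than further upstream.

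**Figure D1:**
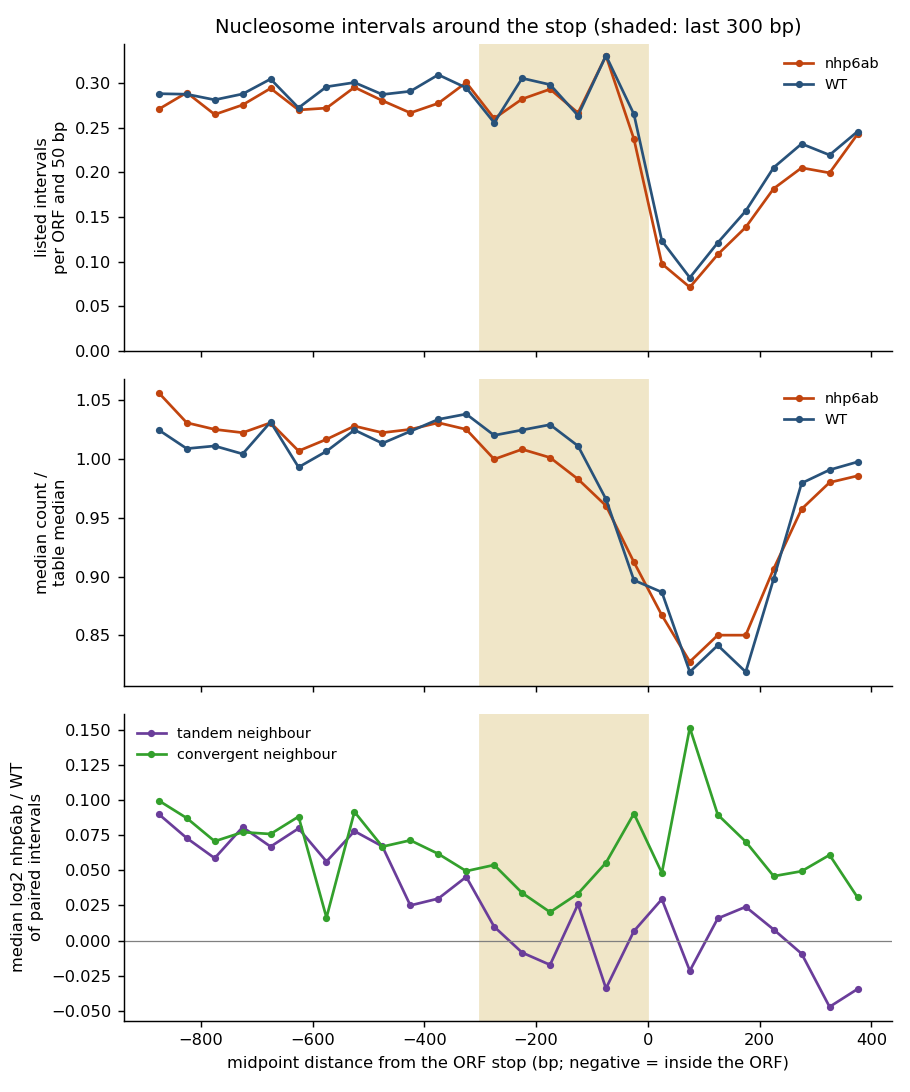
Listed nucleosome intervals in 50 bp bins of midpoint distance from the ORF stop, for 3352 ORFs. The upper panel gives intervals per ORF, the central panel the median count over the table's median (nhp6ab and WT lines), and the lower panel the median log2 ratio of paired intervals (nhp6ab over WT) for ORFs with a tandem or a convergent neighbour. Listing is lowest from 50 to 100 bp beyond the stop, with 0.0713 intervals per ORF in nhp6ab and 0.0820 in WT. The median level is low there too, at 0.828 in nhp6ab and 0.819 in WT.

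Relative to the middle of the same ORF, the 3′ end was slightly lower in nhp6ab and slightly higher in WT at the median ORF. The log2 of 3′ end over middle, by mean count per interval, had a median of −0.046 in nhp6ab (quartiles −0.28 and 0.19, 2956 ORFs) and 0.029 in WT (−0.19 and 0.26, 3041 ORFs). The 3′ end lay below the middle in 1651 ORFs in nhp6ab, or 55.9%, and in 1432 ORFs in WT, or 47.1%. Both shifts were small beside the spread among ORFs. Of 2928 ORFs with values in both tables, 1073 had the 3′ end below the middle in both and 982 above in both. The 3′ end was below the middle in nhp6ab and above it in WT in 564 ORFs, and the opposite held in 304. The sign in WT depended on the window: with windows of 150 bp the WT median was −0.032, with −0.090 in nhp6ab. It also differed by the neighbour beyond the stop, with WT medians of 0.069 in tandem and −0.016 in convergent ORFs. Those of nhp6ab were −0.034 and −0.058. By chromosome, the WT median was below 0 on 5 of 16 and the nhp6ab median on all 16.

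The 3′ end level was near the table median in both. The median ORF had a 3′ end level of 0.989 in nhp6ab and 1.00 in WT, and a middle level of 1.04 in nhp6ab and 1.01 in WT. The first 300 bp of the same ORFs stood higher, at 1.09 in nhp6ab and 1.12 in WT. When each ORF was cut into 10 equal segments from start to stop, the median level in nhp6ab was 1.08 in segment 1, 1.01 in segment 6, 0.997 in segment 9 and 0.958 in segment 10. In WT it was 1.11 in segment 1, 0.980 in segment 6, 1.01 in segment 9 and 0.968 in segment 10. In nhp6ab each segment was thus at or below the one before it, while in WT segment 9 stood above segment 6, a difference that was not tested.

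**Figure D2:**
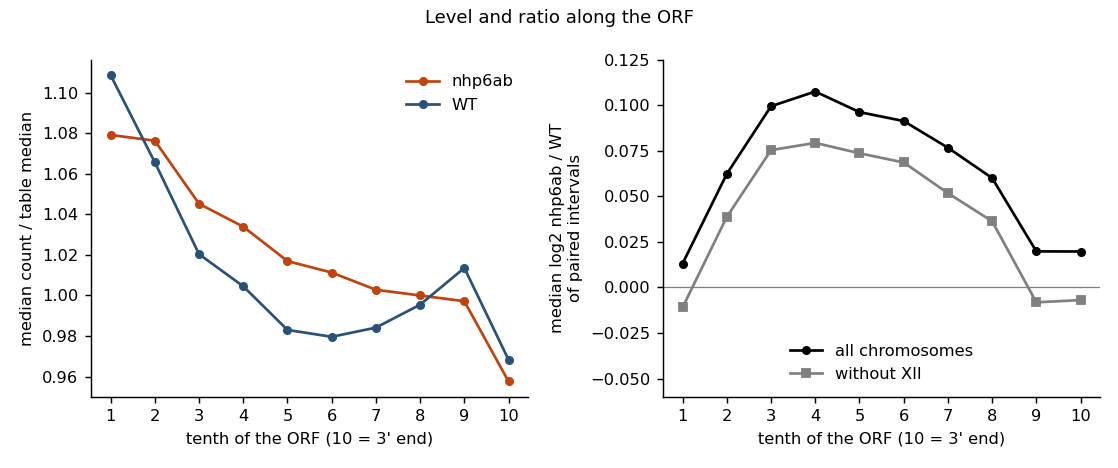
Median level (left, count over the table median) and median log2 ratio of paired intervals, nhp6ab over WT (right), in 10 equal segments of the ORF, with the 3′ end in segment 10. The WT level has a second, lower peak in segment 9 at 1.01, and the ratio peaks in segment 4 at 0.11 and is 0.020 in segments 9 and 10.

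With counts scaled to the table totals, nhp6ab was near parity with WT at the 3′ ends and higher in the middle of the same ORFs. Over all 3′ ends, 1955682 counts were listed in nhp6ab and 2537341 in WT, a log2 ratio of 0.01 (0.008 to 0.014). Over all middles the counts were 2025390 in nhp6ab and 2547477 in WT, a log2 ratio of 0.056 (0.053 to 0.058). Intervals were 2.75% fewer in nhp6ab at the 3′ ends and 3.93% fewer in the middles, and their widths summed to 814690 bp in nhp6ab and 857790 bp in WT at the 3′ ends and to 806636 bp and 856858 bp in the middles. The mean count per interval was 350 in nhp6ab and 442 in WT at the 3′ ends, a log2 ratio of 0.05 after scaling, and 363 and 439 in the middles, a log2 ratio of 0.11.

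The same held per ORF. A 3′ end was measured when each table listed an interval there and both together had at least 100 counts, which 3084 of 3352 did. The median log2 ratio of summed counts was 0.008 at the 3′ ends (quartiles −0.21 and 0.24) and 0.071 in the middles (−0.18 and 0.32, 3059 ORFs), with a typical counting interval of 0.15 to either side. By the mean per interval the medians were 0.023 and 0.101, and over 33705 windows of 300 bp that tile the genome the median was 0.047. The sign at the 3′ ends was not stable. The median of summed ratios was −0.059 after scaling to the median count, 0.047 after scaling to totals without chromosome XII, and −0.015 when the ORFs of chromosome XII were left out. In the middles the same settings gave 0.0048, 0.11 and 0.051. Which of the windows lay near parity thus depended on the scaling. Within an ORF the scaling cancels. The 3′ end ratio minus the middle ratio had a median of −0.057 by the sum, the planned measure. By the sum 1607 of 2928 ORFs, or 54.9%, lay below 0, with quartiles of −0.45 and 0.34. By the mean, a version that was not planned, the median was −0.077 and 1783 ORFs, or 60.9%, lay below 0. The quartiles by the mean, −0.27 and 0.13, also span values on both sides of 0.

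**Figure D3:**
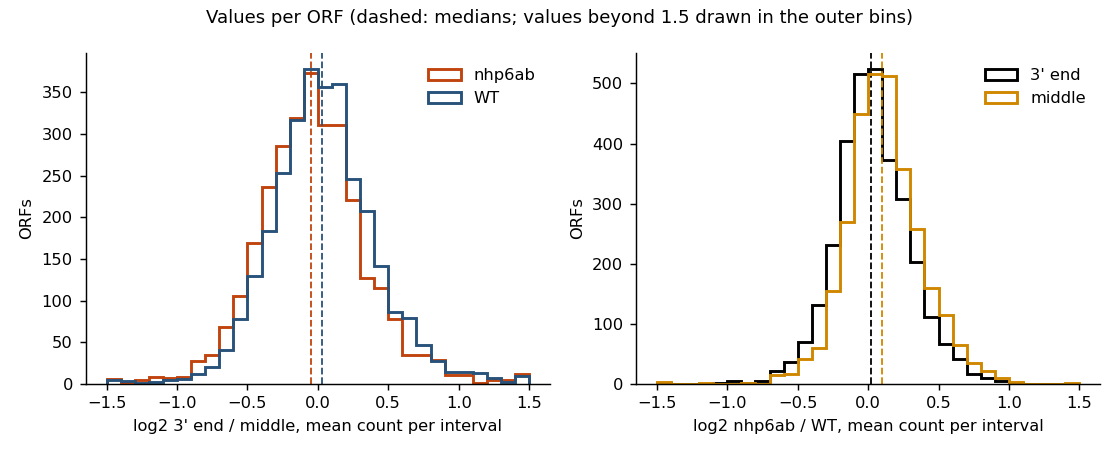
Histograms over ORFs of the log2 of 3′ end over middle in nhp6ab and WT (left) and of the log2 ratio nhp6ab over WT at the 3′ end and in the middle (right), by mean count per interval, with medians as dashed lines. The medians are −0.046 in nhp6ab and 0.029 in WT on the left, and 0.023 at the 3′ end and 0.101 in the middle on the right, and the distributions overlap widely.

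The 5′ part of the ORFs behaved like the 3′ end in this respect. In the first 300 bp the median ratio by the mean was 0.014, and the first 300 bp lay below the middle in 62.1% of 2961 ORFs, by a median of −0.085. Between the 3′ end and the first 300 bp the median difference was 0.003 over 2985 ORFs. The lower ratio was therefore shared by both ends of the ORF and was not particular to the 3′ end. Along the segments, the ratio of paired intervals was 0.013 in segment 1, 0.11 in segment 4, 0.060 in segment 8 and 0.020 in segments 9 and 10.

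Single nucleosomes gave the same order. Each WT interval was matched to the nhp6ab interval with the closest midpoint, at most 50 bp away. At 3′ ends 85.0% of WT intervals had a partner (84.1% to 86.0%) and in middles 84.3% (83.4% to 85.3%). The median log2 ratio, nhp6ab over WT, was 0.021 over 4886 pairs at 3′ ends and 0.093 over 4893 pairs in middles, against 0.043 for all 51169 pairs. Pairs below 0 made up 47.1% at 3′ ends and 35.6% in middles, with 43.6% genome-wide. Without chromosome XII the medians were −0.0052 at 3′ ends, 0.072 in middles and 0.019 genome-wide. Pairs at least 1.5-fold lower in nhp6ab, with an interval that excluded 0, were 2.05% at 3′ ends, 1.12% in middles and 2.89% genome-wide, and pairs at least 1.5-fold higher were 3.42%, 5.8% and 4.52%. Without chromosome XII the lower shares were 2.23%, 1.23% and 3.08% and the higher shares 1.61%, 3.15% and 2.37%. The 3′ ends thus held fewer lower calls than the genome and more than the middles.

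By the mean, all 16 chromosomes had a lower median ratio at the 3′ ends than in the middles. The median difference within the ORF, by the mean, ranged from −0.15 on chromosome I to −0.038 on chromosome X, and by the sum it lay below 0 on 15 of 16. Chromosome XII was raised in nhp6ab as a whole, with a median ratio of 0.42 at the 3′ ends and 0.51 in the middles, while the 3′ end medians of the other 15 chromosomes lay between −0.032 and 0.028. Within chromosome XII the 3′ end was nevertheless below the middle by a median of −0.072. Against the first 300 bp, the 3′ end median was lower on 7 chromosomes and higher on 9.

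**Figure D4:**
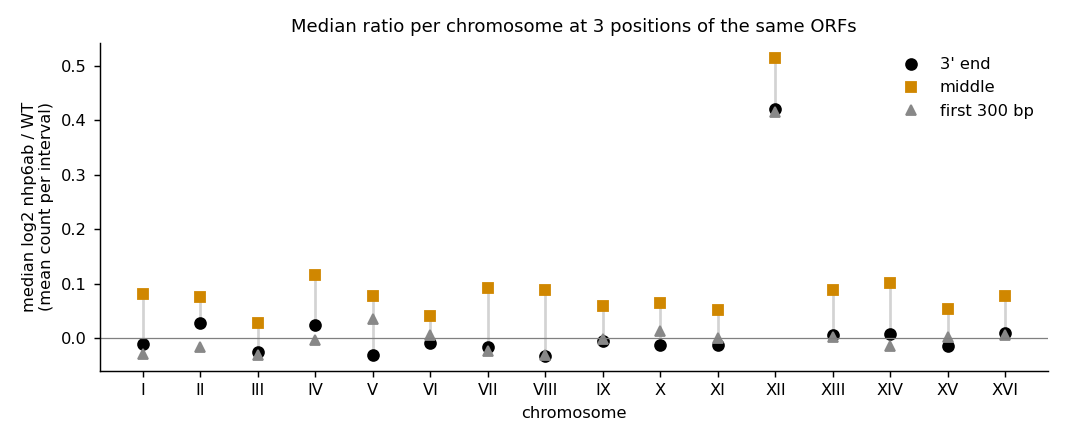
Median log2 ratio, nhp6ab over WT, of the mean count per interval on each chromosome, at the 3′ end, in the middle and in the first 300 bp of the same ORFs. On all 16 chromosomes the 3′ end lies below the middle, and chromosome XII stands apart at 0.42 and 0.51.

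The gene beyond the stop went with both the level and the ratio. Of the 3352 ORFs, 1596 had a tandem and 1748 a convergent neighbour, and 8 had no gene beyond them. With a tandem neighbour the median 3′ end level was 1.01 in nhp6ab and 1.06 in WT, and with a convergent neighbour 0.960 and 0.958. Tandem 3′ ends had the higher median level on all 16 chromosomes in both tables. The middles differed less, with 1.05 in nhp6ab and 1.03 in WT for tandem and 1.03 and 0.998 for convergent ORFs. Without chromosome XII, the median ratio by the mean was −0.029 at 1368 tandem 3′ ends and 0.025 at 1459 convergent 3′ ends, against 0.073 and 0.085 in their middles. The 3′ end thus lay below the middle by a median of −0.11 in tandem and −0.048 in convergent ORFs. Over all ORFs this difference was more negative for tandem than for convergent ORFs on 14 of 16 chromosomes.

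The values followed no steady order with the gap to the next gene. Paired 3′ end intervals had a median ratio of −0.017 in tandem ORFs with a gap from 200 bp to under 400 bp (1146 pairs) and −0.0039 at 400 bp and more (1145 pairs), but 0.036 in the few tandem ORFs with a gap under 200 bp (133 pairs). In convergent ORFs the medians were 0.050, 0.032 and 0.071 for gaps under 200 bp, from 200 bp to under 400 bp and of 400 bp and more. By ORF length, the 3′ end pairs had medians of 0.030 in ORFs from 1000 bp, 0.019 from 1500 bp, 0.017 from 2000 bp and −0.0061 from 3000 bp. Without chromosome XII these were 0.0086, −0.0070, −0.016 and −0.017. The WT log2 of 3′ end over middle was −0.020, 0.018, 0.082 and 0.101 over the same classes, and that of nhp6ab −0.064, −0.049, −0.034 and 0.061.

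Calls of single 3′ ends followed the listing. By summed counts, 361 3′ ends were at least 1.5-fold lower in nhp6ab with an interval that excluded 0, which is 11.7% of those measured, and 335 or 10.9% were higher. Among genome tiles the shares were 13.6% and 11.2%, and among middles 12.1% and 13.4%, so the 3′ ends did not exceed this background. Where nhp6ab listed fewer intervals than WT (508 3′ ends) the median summed ratio was −0.74, where it listed more (418) it was 0.79, and where the numbers were equal (2158) it was 0.016. With equal numbers, 28 3′ ends were lower and 42 higher. By the mean per interval, 42 3′ ends were lower (1.36%) and 82 higher (2.66%), against 2.7% and 3.93% of tiles and 0.621% and 5.03% of middles. Without chromosome XII, 42 of 2827 3′ ends were lower (1.49%) and 21 higher (0.743%). Among tiles the shares were 2.86% lower (880 tiles) and 1.77% higher (544 tiles), so lower calls were the more frequent there as well as at 3′ ends. Among middles the shares were 0.678% lower and 2.25% higher. Higher calls thus made up 33.3% of the calls at 3′ ends and 76.8% in middles. Scaling to the median count gave 17.3% at 3′ ends and 56.1% in middles, and scaling to the totals without chromosome XII gave 49.2% and 85.1%. Of the 42 lower 3′ ends 27 were tandem and of the 21 higher ones 6, among 1368 tandem ORFs of the 2827 measured. With the median count these were 40 of 67 and 4 of 14, and with totals without chromosome XII 22 of 30 and 7 of 29.

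The ORFs with extreme values were chosen by rule among the 1973 ORFs with at least 2 intervals at the 3′ end in both tables, so their values are descriptions without a test. Of the ORFs at the low end, all 9 distinct ones by ratio, level or 3′ end over middle had a tandem neighbour, as had 50.4% of the ORFs they were drawn from. Tandem neighbours were also found at the high end, for BOP2, RRN5, SYH1, MIT1, RNQ1, AGP1 and MGR1. SCS3, an ORF for an endoplasmic reticulum protein needed for normal inositol synthesis (YGL126W, chromosome VII, 270997 to 272139, 380 bp before MET13), had the lowest ratio among these ORFs. Its 3′ end intervals held 48 and 26 counts in nhp6ab, against 177 and 115 in WT. The log2 ratio was −1.59 (−1.98 to −1.22), and its middle was also lower, at −1.10. Its level at the 3′ end was 0.105 in nhp6ab and 0.330 in WT.

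PAC11, the gene of a dynein intermediate chain (YDR488C, chromosome IV, 1429188 to 1430789, 207 bp before RIB3), had its low value at the 3′ end, with a middle near parity. The intervals there held 52 and 34 counts in nhp6ab, against 110 and 127 in WT, a ratio of −1.08 (−1.45 to −0.71). Its middle held 258 and 191 counts in nhp6ab and 311 and 304 in WT, a ratio of −0.07. TRM5, a tRNA methyltransferase gene (YHR070W, chromosome VIII, 234881 to 236380), was among the lowest in 3′ end over middle. Its 3′ end had 88 and 37 counts in nhp6ab, against 175 and 139 in WT. In its middle the counts were 383 and 435 in nhp6ab and 573 and 557 in WT. The log2 of 3′ end over middle was −2.71 in nhp6ab and −1.85 in WT, so in TRM5 the 3′ end was far below the middle in both tables.

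The other low 3′ ends differed in how far the listing entered their ratio. FMT1, for mitochondrial methionyl-tRNA formyltransferase, had a summed ratio of −1.26, and NPL3, for an mRNA-binding protein that shuttles between nucleus and cytoplasm, −1.13. Each listed 2 intervals in nhp6ab and 3 in WT, and the mean per interval gave −0.67 and −0.55. YFR018C stood at −1.06 and PTK1, a protein kinase gene of polyamine uptake, at −0.95, with 2 intervals in each table. FUN26, a nucleoside transporter gene, had 3′ end levels of 0.280 in nhp6ab and 0.411 in WT and a log2 of 3′ end over middle of −1.85 and −1.37. ART5, of the arrestin-related adaptors of endocytosis, had levels of 0.208 and 0.292. In NPL3 the middle was low too, at 0.158 in nhp6ab and 0.209 in WT, so its low 3′ end was part of a low ORF.

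**Figure D5:**
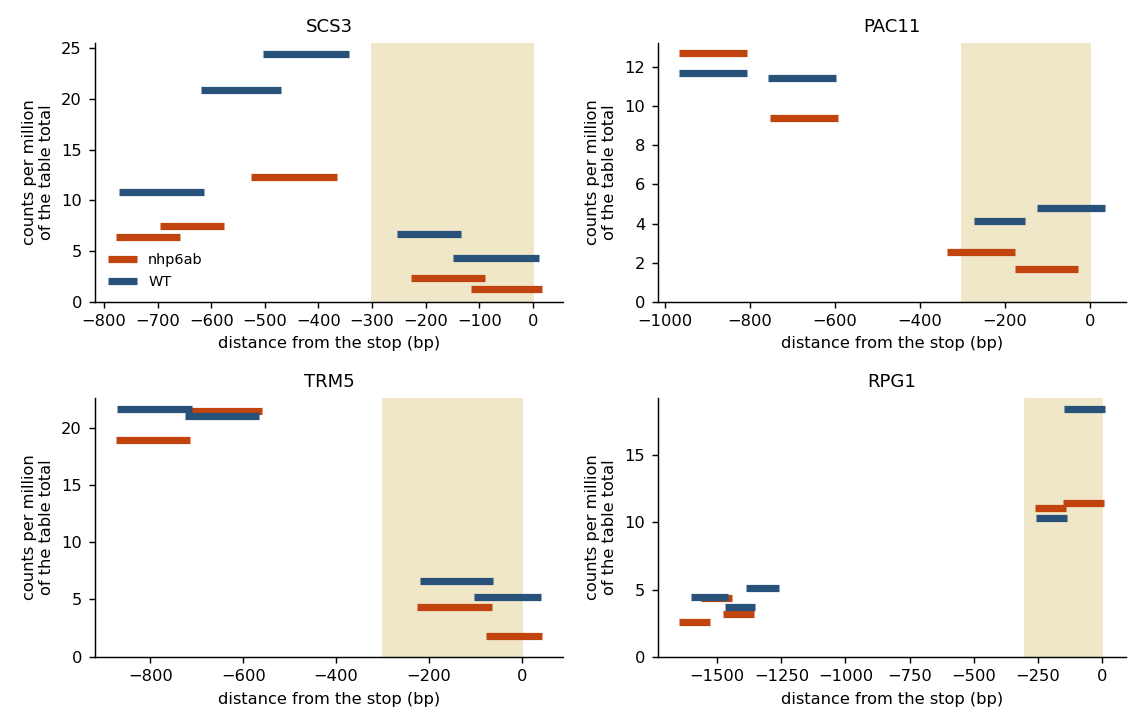
Listed intervals of 4 ORFs at the 3′ end (shaded, last 300 bp) and in the middle, drawn as bars over their extent by distance from the stop, with the height in counts scaled to the table total. In SCS3, PAC11 and TRM5 the 3′ end lies below the middle in both tables and lower in nhp6ab than in WT, and in RPG1 the 3′ end lies above the middle.

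A wider group of low 3′ ends was also looked at. Taking the mean of the 2 tables' levels, 49 of 3084 measured 3′ ends stood under 0.5, a class added after the values were seen. Without chromosome XII, the 25 tandem ones had a median ratio of −0.29 by the mean with 19 below 0, and the 19 convergent ones a median of 0.066 with 9 below 0. The 25 include the 9 low ORFs named above, all of them below 0, so this class does not stand apart from them. Of the middles, 133 stood under 0.5, with a median ratio of −0.021 over the 124 outside chromosome XII.

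At the high end of the ratio, position on chromosome XII and an additional listed interval went together. Among the ORFs with at least 2 intervals in both tables, all 6 with the highest summed ratio lay on that chromosome and listed 3 intervals at the 3′ end in nhp6ab and 2 in WT. TAL1, for the pentose phosphate enzyme transaldolase (YLR354C, chromosome XII, 836350 to 837357), led with 440, 415 and 362 counts in nhp6ab, against 364 and 274 in WT. Its ratio was 1.32 (1.18 to 1.46), or 0.73 by the mean. BOP2 followed at 1.21, FMP25 at 1.08, MAS1, a subunit gene of the mitochondrial processing protease, at 1.03, SSK1, of the osmotic stress pathway, at 0.99 and the sporulation gene SPO75 at 0.98. By the mean these 5 lay between 0.40 and 0.62, beside a chromosome median of 0.42.

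The highest 3′ end levels in WT belonged to 4 ORFs of chromosome III that were high throughout in both tables. RNQ1, for a prion-forming protein (YCL028W, 70150 to 71367), had 1122 and 711 counts at its 3′ end in nhp6ab and 1528 and 1076 in WT, levels of 2.59 and 2.95. AGP1, an amino acid permease gene, stood at 2.77 in nhp6ab and 2.75 in WT, MGR1, of a mitochondrial protease complex, at 2.44 and 2.72, and LRE1 at 2.36 and 2.41. Their middles were as high, between 2.28 and 2.93 in nhp6ab and between 2.11 and 2.76 in WT. Their 3′ end ratios lay between −0.12 and 0.08.

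The ORFs in which the 3′ end most exceeded the middle in WT had low middles. RPG1, the gene of a large subunit of translation initiation factor eIF3 (YBR079C, chromosome II, 395383 to 398277), held 225 and 233 counts at its 3′ end in nhp6ab and 274 and 490 in WT. Its 3 middle intervals held 52, 89 and 65 counts in nhp6ab, against 118, 98 and 135 in WT. The log2 of 3′ end over middle was 1.74 in nhp6ab and 1.71 in WT. RRN5, of the RNA polymerase I upstream activating factor (chromosome XII), stood at 1.51 in nhp6ab and 1.87 in WT, SYH1 at 1.12 and 1.62, and MIT1, a regulator of filamentous growth, at 0.82 and 1.51. Middle levels of these 4 ORFs were between 0.194 and 0.489 in nhp6ab and between 0.235 and 0.369 in WT.

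Translation factor genes as a group had 3′ ends well above their middles in both tables. Their median log2 of 3′ end over middle was 0.64 in nhp6ab (14 ORFs, 2 below 0) and 0.73 in WT (15 ORFs, 2 below 0), against −0.046 and 0.029 over all ORFs. Median levels at the 3′ end were 0.654 in nhp6ab and 0.738 in WT, and in the middle 0.408 and 0.436. Of 21 such ORFs in the length range, 14 were measured at the 3′ end, and their median ratio there was 0.006 by the mean with 7 below and 7 above 0. None was called lower and 3 were called higher by the sum, beside the background of 11.7% and 10.9%. By the mean none was called in either direction. TIF4631, for a form of initiation factor eIF4G, had 3 intervals in nhp6ab with 877 counts and 1 in WT with 329, a summed ratio of 1.80 and 0.22 by the mean. TIF4632, its paralogue, was at 0.99 by the sum and −0.01 by the mean. GCD11, of initiation factor eIF2, stood at −0.38 and RPG1 at −0.35 with 2 intervals in each table. Near-identical copies such as TEF1 and TEF2, EFT1 and EFT2, and TIF1 and TIF2 had no listed 3′ end interval in either table.

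Genes of glycolysis and fermentation, heavily used in glucose medium, had lower levels along the ORF. Their median 3′ end level was 0.831 in nhp6ab and 0.853 in WT, and the middle level 0.784 and 0.786. The 3′ end over middle had a median of −0.096 in nhp6ab (10 of 17 below 0) and 0.033 in WT (7 of 15 below 0). The median ratio at 17 measured 3′ ends was −0.057 by the mean, with 10 below and 7 above 0, and none was called by the mean. By the sum 3 were lower and 1 higher, beside 11.7% and 10.9% of all measured 3′ ends. ENO2, an enolase gene, and GLK1, for glucokinase, were lowest at −1.16 and −0.95 by the sum but −0.16 and 0.05 by the mean, with 1 interval in nhp6ab and 2 in WT. HXK2, for a hexokinase, was at 0.70 by the sum and −0.30 by the mean, and PDC5, for a pyruvate decarboxylase on chromosome XII, at 0.48 by both.

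Galactose genes, which glucose represses, mostly had the 3′ end below the middle. Of 7 ORFs, 5 had the 3′ end below the middle in nhp6ab and 5 in WT, with medians of −0.098 and −0.32. Their 3′ end levels had medians of 1.08 in nhp6ab and 1.18 in WT, and their middles 1.26 and 1.25. GAL3, for the galactose sensor, had a 3′ end level of 0.899 in nhp6ab and 1.18 in WT, and GAL10, for an epimerase, 1.10 and 1.26. GAL4, for the activator, stood at 0.96 and 0.99. GAL2, the transporter gene on chromosome XII, stood at 1.68 and 1.37. None of the 7 was called by sum or mean.

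The remaining groups stayed close to all ORFs in the 3′ end ratio by the mean, but not all did in level. Median 3′ end levels of chaperone genes were 0.917 in nhp6ab and 0.852 in WT, and of proteasome ATPase genes 0.861 and 0.862. Those of meiosis genes were 1.12 and 1.11 and of amino acid synthesis genes 0.962 and 1.00, against 0.989 and 1.00 over all ORFs. Chaperone genes had a median ratio by the mean of 0.096 (21 measured, 6 below 0) and meiosis genes, silent in growing cells, 0.088 (17 measured, 5 below 0). Amino acid synthesis genes had 0.035 (42 measured, 17 below 0) and proteasome ATPase genes −0.061 (6 measured, 4 below 0), all against 0.023 over all ORFs. By the sum 1 chaperone gene was lower and 2 were higher, and for meiosis genes 1 and 1. For amino acid synthesis genes 4 were lower and 7 higher, and for proteasome ATPase genes there was no call. Over all measured 3′ ends 11.7% were lower and 10.9% higher. By the mean, 1 chaperone gene and 1 amino acid synthesis gene were higher and none was lower. Named by the sum, SSC1 and TCP1 were lowest among the chaperones at −0.89 and −0.57, and SSB2 and HSP104 highest at 1.14 and 1.37. By the mean these were 0.11, 0.01, 0.14 and 0.37, with a different number of listed intervals in each table for all 4. HSP104 lies on chromosome XII, where the median 3′ end ratio by the mean was 0.42. Of the meiosis genes, MSH5 stood at −0.71 and IME2 at −0.24, REC8 at 0.34 and DMC1 at 0.67. Only IME2 and REC8 of these 4 listed equal numbers in both tables, and MSH5 and DMC1 were at 0.29 and −0.33 by the mean. MET6 and ARO8 were lowest of the amino acid synthesis genes at −1.53 and −1.40, each with 1 interval in nhp6ab and 3 in WT, and GDH1 and THR4 highest at 1.07 and 1.19. By the mean these 4 lay between 0.059 and 0.19.

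For chaperone genes the median log2 of 3′ end over middle was 0.14 in nhp6ab and 0.050 in WT, and for meiosis genes 0.075 and −0.0029. For amino acid synthesis genes it was −0.057 in nhp6ab and 0.098 in WT. In the proteasome ATPases the 3′ end over middle was 0.028 in nhp6ab and 0.30 in WT, where all 6 lay above 0. The sign differed between the tables in 3 of them, with −0.18 in nhp6ab and 0.35 in WT for RPT3, −0.51 and 0.42 for RPT5 and −0.13 and 0.033 for RPT6. In RPT5 the middle was higher in nhp6ab than in WT, at a ratio of 0.86, a call past 1.5-fold. At the 3′ end the ratios of RPT3, RPT5 and RPT6 by the mean were −0.34, −0.067 and −0.056. RPT4 stood at −0.10, RPT2 at 0.23 and RPT1 at 0.30.

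ORFs known for transcription from inside the coding region in FACT or Spt6 mutants were looked at singly. Of 6 names, 5 were ORFs in the length range, all 5 measured. SYF1, a splicing factor gene (chromosome IV, 604 bp before RPL12B), had 353 and 385 counts at its 3′ end in nhp6ab, against 764 and 684 in WT. Its ratio was −0.59, a call just past 1.5-fold, while its middle stood at −0.08. STE11, a kinase gene of the mating pathway, was at 0.72 at the 3′ end, with 509 and 497 counts in nhp6ab and 493 and 304 in WT. Its middle stood at 0.63, and it lies on chromosome XII, where the median 3′ end ratio by the mean was 0.42. AVO1, of the TORC2 complex, stood at −0.08 and the ribosome biogenesis helicase gene SPB4 at 0.09. VPS72, of the SWR1 remodelling complex, was at 1.00 by the sum, with 2 intervals in nhp6ab and 1 in WT, and 0.00 by the mean. By the sum SYF1 was called lower and STE11 and VPS72 higher, beside 11.7% and 10.9% of all measured 3′ ends. By the mean 1 of the 5 was lower and 1 higher, beside 1.36% and 2.66%. No common direction was seen, with 2 below and 3 above 0 by the mean.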

How the data were processed

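H4K16ac ChIP-seq libraries of nhp6ab and WT cells, 2 of each, were available as 1 table of read counts per genotype. Per the file headers the deposited values are read counts per nucleosome interval. All are whole and the tables differ in total, which is why they were taken as raw counts. Build R64 and the tools Bowtie and FastQC are named, per the submitters' processing notes. Not given in the sources used here are the nucleosome caller, read filters, versions and how replicates were merged. Intervals were 120 to 160 bp wide, and 64.0% in nhp6ab and 66.1% in WT overlapped a neighbour, so reads may be counted more than once and counting intervals are then too narrow. The counting error at the median count was 5.31% in nhp6ab and 4.76% in WT.

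ORF positions came from RefSeq (R64), and the W or C of the systematic name gave the strand. An ORF's span includes any intron. Intervals were assigned by midpoint. Ratios were scaled to table totals, with exact conditional binomial intervals, and shares have exact Clopper-Pearson intervals, both at 95%. A call needed at least 1.5-fold and an interval that excluded 0. For the mean per interval, the ratio and its interval were moved by the log2 ratio of the listed numbers. The neighbour was the nearest gene beyond the stop. Named ORFs are the 6 highest and 6 lowest 3′ end ratios, the 4 highest and 4 lowest WT values of 3′ end over middle and of 3′ end level, and all members of lists of up to 6 measured ORFs or the 2 highest and 2 lowest ratios of longer lists. TEF1, TEF2, EFT1, EFT2, TIF1 and TIF2 are named outside this rule. The members and lists were chosen with earlier results of these data known. Python 3.11.15, pandas 2.3.3, numpy 2.4.6 and scipy 1.17.1 were used, and the calculations were tested on simulated data. Because no column per library was given, the count test over libraries was not run. Sequence features were left out, as no genome was used here.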

Additional observations from a re-analysis of the deposited data

Results flagged for a closer look

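The 3′ end lay below the middle in nhp6ab and above it in WT at the median ORF, with a median log2 of 3′ end over middle of −0.046 in nhp6ab and 0.029 in WT. The difference was not tested, because each genotype has a single column of counts for its 2 libraries. In convergent ORFs the WT median was below 0 as well, at −0.016, against 0.069 in tandem ORFs.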

How the results depend on the processing

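Of 93 values recomputed under other settings, 53 stayed within set limits (the exact binomial interval over ORFs of a median, that of a share, or 1.5 times for a count), 37 moved beyond them and 3 changed sign. The cause was not tested except where a setting leaves fewer ORFs. The 3′ end ratio minus the middle ratio stayed below 0 in all 10 settings and moved beyond the limits in 1, to −0.088 with only intervals wholly inside the window. The limit on a count takes no account of the number measured, and except by the mean, shares over genome tiles were not computed for these settings. With windows of 150 bp, 3′ end over middle was −0.090 in nhp6ab and −0.032 in WT, a changed sign in WT. The ratio was then 0.025 at 3′ ends and 0.083 in middles, and of 2408 measured 3′ ends 151 were lower and 210 higher. With windows of 200 bp the first 4 of these were −0.068, 0.0034, 0.023 and 0.085. With intervals wholly inside the window they were −0.028, 0.059, 0.021 and 0.091, with 209 of 2356 measured 3′ ends lower. Without chromosome XII the 3′ end ratio turned to −0.015 and the middle ratio was 0.051. Without overlapping intervals the middle ratio was 0.12 and 89.9% of intervals were paired. Only 979 3′ ends were then measured, of which 128 were lower and 129 higher. With equal numbers of intervals in both tables the middle ratio was 0.089, the calls were 28 and 42 of 2158 3′ ends, and 92.9% were paired. By the mean per interval the ratios were 0.023 and 0.101, with 42 of 3084 3′ ends lower and 82 higher. Scaling to the median count gave −0.059 at 3′ ends, a changed sign, and 0.0048 in middles, and scaling to totals without chromosome XII gave 0.047 and 0.11. At 2-fold, 134 of 3084 3′ ends were lower and 107 higher. With midpoints within 25 bp, 65.4% were paired. Restricting to paired intervals, which was chosen after seeing the data, gave 0.022, 0.089 and 133 lower 3′ ends of 2994 measured. The 3′ end ratio minus the middle ratio by the mean was also outside the plan. ORFs free of overlapping genes, a distance over 20 kb from chromosome ends and other count minimums moved nothing beyond the limits. No paired analysis was possible because each table holds a single column for both replicates, so neither a replicate block nor leaving out a replicate could be run.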

Other observations

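Intervals were narrower in nhp6ab than in WT at the 3′ ends, with a mean width of 146 bp and 149 bp, and 41.2% and 56.7% of them had the full 160 bp. In the middles the widths were 145 bp in nhp6ab and 148 bp in WT. Overlap with a neighbouring interval was found for 64.7% of 3′ end intervals in nhp6ab and 64.6% in WT, and for 70.7% and 73.5% in the middles. Neighbouring midpoints inside a 3′ end were a median of 137 bp apart in nhp6ab and 144 bp in WT, and inside a middle 137 bp and 143 bp. Paired intervals at 3′ ends lay a median of 12 bp apart between the tables, as did those in middles. Relative to WT, 2459 of the 3′ end pairs were shifted towards the stop in nhp6ab and 2249 towards the start, and in middles 2324 and 2359.

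No interval was listed in either table at the 3′ end of 189 ORFs. Of these, 47 or 24.9% lay within 20 kb of a chromosome end, where 118 or 3.52% of all 3352 ORFs lay. A further 65 3′ ends were listed in WT alone and 13 in nhp6ab alone, and 1 listed in both had too few counts. A missing interval does not stand for 0 reads. Across the 2928 ORFs measured at both windows, the 3′ end and middle ratios by the mean had a Spearman correlation of 0.27, or 0.13 over the 2680 without chromosome XII. These points share the same pair of libraries and are not independent replicates.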
